A study of Mus musculus with 6 samples.

Results

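Complement genes for C3, the C4 proteins, the factors that build the C3 convertases and the proteins that restrain them were described in mouse kidney. The 9 genes C4b, C4a, C2, C3, Cfb, Cfi, Serping1, Cd55 and Cd46 were found by name among the 17550 genes of the deposited table, and all 9 were present. They were picked with the difference between KC-Tie2 and Control kidneys already known, so that difference, and whether a fit over all genes called it, is a description for them and no evidence of its own. KC-Tie2 mice are studied as a psoriasis model: their skin epithelium expresses Tie2, the angiopoietin receptor, from a transgene. Poly(A)-selected libraries came from whole kidneys of saline-perfused mice, 3 labelled KC-Tie2 and 3 labelled Control. The labels used here give no promoter, strain, sex, age or litter for either genotype, and do not say that samples of a genotype were separate animals, so p-values measure only the spread between these samples, which may be technical.

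Complement is a cascade of plasma and membrane proteins that marks surfaces for removal and opens pores in them. The classical pathway runs from C1q through C4 and C2 to a protease that cleaves C3, and the alternative pathway builds another such protease from C3b and factor B. Factor I, the C1 inhibitor and membrane proteins such as CD55 and CD46 restrain these steps. The liver makes most circulating complement, and kidney tubule cells are known to make C3, C4 and factor B locally.

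C4b, Cfi and C3 stood far above the rest in their difference between genotypes. C4b averaged 3738 ± 957 normalized counts in KC-Tie2 kidneys and 113 ± 35.2 in Control kidneys (SD, n = 3 each). Cfi averaged 773 ± 167 in KC-Tie2 and 58.4 ± 4.08 in Control kidneys, and C3 1684 ± 664 in KC-Tie2 and 382 ± 115 in Control kidneys. The other 6 genes differed by less than 1.5 times between the group means in either direction. In the fit over all genes, which used limma with Benjamini-Hochberg adjustment and called genes at an adjusted p under 0.05, C4b and Cfi were called higher (2 of 9) and no member was called lower (0 of 9, with 4 of the 9 at an unadjusted p under 0.05 in either direction). Over all 17539 genes tested, 0.855% were called higher and 0.838% lower, 1.69% in either direction, and 15.3% were at an unadjusted p under 0.05. The choice of the 9 used this contrast, so nothing is read from their counts. The authors' deposited table called 3 of the 9 higher at a step-up FDR under 0.05, C4b, Cfi and C3, and none lower, against 1.83% higher and 2.08% lower, 3.91% in either direction, over all its genes. The median log2 fold change was 0.25 over the 9 genes and 0.0012 over all genes tested. In whole-kidney RNA, a change in the number of cells of a type and a change in RNA per cell cannot be told apart.

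Normalized counts summed to 23647811 to 25155944 per library in KC-Tie2 and to 24288853 to 25495455 in Control kidneys. Kidney markers were abundant in every library. The 6 proximal tubule markers summed to 280263 to 322904 normalized counts in KC-Tie2 and 329470 to 354764 in Control kidneys, and the 4 podocyte markers to 7818 to 10468 in KC-Tie2 and 7034 to 8000 in Control kidneys. Tek, the mouse gene for Tie2, stood at 934, 933 and 976 in KC-Tie2 and 1073, 1081 and 989 in Control kidneys (limma adjusted p = 0.361); a skin transgene is not checked by kidney RNA. The 5 adipocyte markers in the table summed to 1755, 490 and 474 in KC-Tie2 replicates 1 to 3 and to 2543, 556 and 471 in Control replicates 1 to 3, so the libraries numbered 1 held more fat transcripts in both genotypes. Without these 2 libraries, in a fit of 2 against 2 chosen after seeing the data, C4b had a log2 fold change of 4.91, against 5.05 with all 6, and Cfi 3.77, against 3.68. That fit called 15 genes higher and 5 lower in all, Cfi among them and C4b not.

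C4b and C4a are near-identical neighbours, so it matters which bases tell their reads apart. The longest transcripts of the GENCODE release M21 annotation, 5379 bases for C4b and 5371 for C4a, were 96.1% identical over 5367 aligned bases and differed at 207 of them. Of all 100-base stretches of the C4b transcript, 16.5% also occurred without a difference in a C4a transcript, and 35.2% of 50-base stretches did. The stretch of 90 bases below lies in exon 21 of both transcripts, in coding sequence of C4b, and is shown because it had the most differences, 14, of any ungapped coding stretch of that length within an exon. It spans chr17:34735430-34735519 in C4b and chr17:34816086-34816175 in C4a on GRCm38, minus strand, and capitals mark the bases that differ.
C4b: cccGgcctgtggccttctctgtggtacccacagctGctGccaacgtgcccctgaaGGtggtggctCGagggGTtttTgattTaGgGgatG
C4a: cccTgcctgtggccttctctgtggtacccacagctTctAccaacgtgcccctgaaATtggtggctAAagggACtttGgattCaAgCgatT
The deposited table classes C4a as a long non-coding RNA and C4b as protein-coding, and the RefSeq table lists C4a as a transcribed pseudogene.

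Promoter sequences, 250 bases before to 50 after the RefSeq gene start, were given for 3 of the 9 genes (C3, Cd55 and Cd46; RefSeq, GRCm38.p6). The promoters of C3 and Cd55 are printed because the groups lay apart in opposite directions at these genes. C3 starts within chr17:57228087-57228386 and Cd55 within chr1:130462695-130462994, both on the minus strand, and capitals mark motif matches.
C3: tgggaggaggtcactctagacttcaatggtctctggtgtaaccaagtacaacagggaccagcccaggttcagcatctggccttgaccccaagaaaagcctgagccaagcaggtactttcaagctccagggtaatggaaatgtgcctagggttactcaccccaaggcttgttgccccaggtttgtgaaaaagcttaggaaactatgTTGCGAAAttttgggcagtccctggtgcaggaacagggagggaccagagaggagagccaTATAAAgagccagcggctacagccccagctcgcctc
Cd55: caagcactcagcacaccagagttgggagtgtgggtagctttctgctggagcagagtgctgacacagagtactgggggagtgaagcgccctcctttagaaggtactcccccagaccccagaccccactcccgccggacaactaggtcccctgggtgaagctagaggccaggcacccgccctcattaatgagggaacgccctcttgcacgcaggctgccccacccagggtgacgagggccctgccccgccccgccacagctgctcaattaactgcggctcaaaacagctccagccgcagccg
Motifs were searched on both strands. TTGCNNAA, bound by C/EBP factors, matched the C3 stretch at bases 206 to 213, counted from 1 at its 5′ end, and occurs in 10.8% of the 32851 promoters of this length. TATAAA matched it at bases 265 to 270 and occurs in 13.6%. That match lies at positions 15 to 20 after the RefSeq gene start, not upstream of it. The 2 matches do not overlap. TTCNNNGAA, bound by STAT factors, the interferon response element (GAAA, any 2 bases, GAAA) and the kappa B consensus did not match the C3 or the Cd55 stretch, and occur in 8.3%, 3.44% and 8.46% of promoters. No motif matched in Cd55, and in Cd46 the interferon motif matched at bases 253 to 262. These are matches of letters, not measured binding.

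C4b encodes complement C4, whose cleavage starts the classical and lectin C3 convertase (ENSMUSG00000073418, chromosome 17, 34947354 to 34962856, minus strand, build mm39). C4b stood at 4070, 4484 and 2659 normalized counts in KC-Tie2 replicates 1 to 3 and at 100, 152 and 85 in Control replicates 1 to 3. Every KC-Tie2 library was above every Control library, and the lowest KC-Tie2 value was KC-Tie2 replicate 3. C4b rose 33.1-fold, with a log2 fold change of 5.05 ± 0.30 (SE, on the log2 of value + 1, KC-Tie2 minus Control), which ranked it 2 of 17539 genes. The call was lost without Control replicate 1, at a log2 fold change of 4.99.

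C4a, known in mouse as the gene of the sex-limited protein but classed here as non-coding, was low in both genotypes (ENSMUSG00000015451, chromosome 17, 35028069 to 35042440, minus strand). C4a stood at 42.9, 20.4 and 21.9 normalized counts in KC-Tie2 and 15.2, 33.6 and 27.3 in Control kidneys, or 24.1 to 38.7 and 14.4 to 40.7 estimated counts. The groups overlapped, with a log2 fold change of 0.15 ± 0.40 whose sign turned when replicate 1 of either genotype was left out. C4a made up 0.453% to 1.04% of the summed C4a and C4b counts in KC-Tie2 kidneys and 13.1% to 24.3% in Control kidneys. C4a thus did not show the separation of the groups seen at C4b, although how reads matching both genes were counted was not stated, so the split between them is uncertain.

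C2 encodes the serine protease that joins C4b protein in the classical convertase (ENSMUSG00000024371, chromosome 17, 35081580 to 35117241, minus strand). C2 stood at 922, 1167 and 783 normalized counts in KC-Tie2 and 924, 737 and 741 in Control kidneys. The groups overlapped, Control replicate 1 lying above KC-Tie2 replicates 1 and 3, and the log2 fold change was 0.25 ± 0.15.

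C3 is the component on which all pathways converge (ENSMUSG00000024164, chromosome 17, 57510970 to 57535136, minus strand). C3 stood at 2154, 1974 and 925 normalized counts in KC-Tie2 and 477, 415 and 254 in Control kidneys. All KC-Tie2 libraries were above all Control libraries, with KC-Tie2 replicate 3 well below the other KC-Tie2 libraries. The log2 fold change was 2.09 ± 0.45, rank 20 of 17539, and the gene was not called by limma. It was called in 2 of 16 alternative fits, without KC-Tie2 replicate 3 (log2 fold change 2.48) and with the replicate number added (2.09). The latter fit takes equal numbers as pairs, and whether they are pairs is not known. Over the 16 fits the limma adjusted p of C3 ran from 3.27e-07 to 0.609. C3 was also among the calls of the authors' deposited table, at a ratio of 4.4.

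Cfb encodes factor B, the protease subunit of the alternative convertase (ENSMUSG00000090231, chromosome 17, 35075350 to 35081494, minus strand). Cfb had 7337, 7646 and 7028 normalized counts in KC-Tie2 and 7882, 7199 and 8448 in Control kidneys, which per kilobase was the highest of the 9 in every library. The groups overlapped and the spread was small, 4.21% of the mean in KC-Tie2 kidneys, and the log2 fold change was -0.09 ± 0.08.

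Cfi encodes factor I, the protease that inactivates C3b and C4b proteins with the help of cofactors such as CD46 (ENSMUSG00000058952, chromosome 3, 129629533 to 129668981, plus strand). Cfi stood at 733, 956 and 629 normalized counts in KC-Tie2 and 63, 55.3 and 56.8 in Control kidneys. Every KC-Tie2 library was far above every Control library, and the Control libraries were close together. Cfi rose 12.8-fold, with a log2 fold change of 3.68 ± 0.16, rank 7 of 17539. Its log2 fold change ran from 3.52 to 3.82 over 16 alternative fits.

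Serping1 encodes the C1 inhibitor, which blocks C1r, C1s and the lectin pathway proteases (ENSMUSG00000023224, chromosome 2, 84595731 to 84605788, minus strand). Serping1 stood at 1419, 917 and 972 normalized counts in KC-Tie2 and 771, 982 and 618 in Control kidneys. Control replicate 2 lay above KC-Tie2 replicates 2 and 3, so the groups overlapped, and the log2 fold change was 0.48 ± 0.24.

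Cd55 encodes decay-accelerating factor, a membrane protein that takes C3 convertases apart (ENSMUSG00000026399, chromosome 1, 130366764 to 130390481, minus strand). Cd55 stood at 228, 168 and 223 normalized counts in KC-Tie2 and 349, 242 and 318 in Control kidneys. Every KC-Tie2 library was below every Control library, the closest pair being KC-Tie2 replicate 1 and Control replicate 2. The log2 fold change was -0.55 ± 0.16 and the gene was not called in the fit over all 6 libraries. It was called in 2 of 16 alternative fits, without Control replicate 2 (-0.70) and with the replicate number added (-0.55), which takes equal numbers as pairs. Over the 16 fits the limma adjusted p of Cd55 ran from 0.0302 to 0.527.

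Cd46 encodes a membrane cofactor for factor I, which in mouse is known mainly from testis (ENSMUSG00000016493, chromosome 1, 194719134 to 194774557, minus strand). Cd46 stood at 152, 172 and 220 normalized counts in KC-Tie2 and 225, 202 and 212 in Control kidneys. KC-Tie2 replicate 3 lay inside the Control range, and the log2 fold change was -0.25 ± 0.15. Over the 9 genes the groups did not overlap at 4: C4b, C3 and Cfi with KC-Tie2 higher and Cd55 with KC-Tie2 lower. Over all genes tested 9.96% lay apart with KC-Tie2 higher and 10% with KC-Tie2 lower, 20% in either direction.

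**Figure D1:**
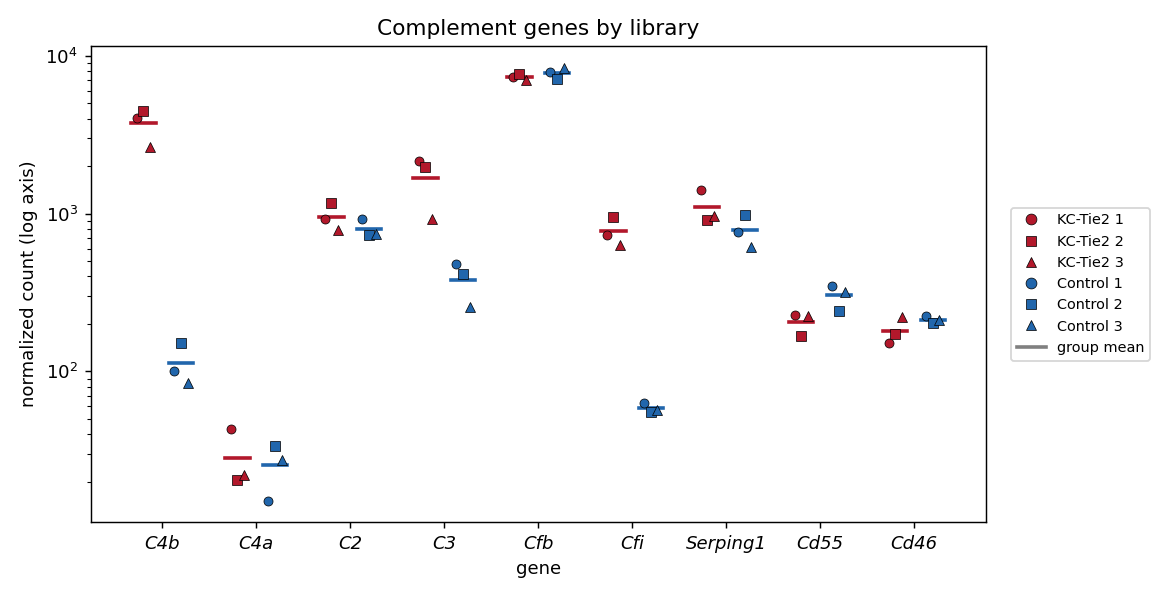
Normalized count (log axis) of each of the 9 genes in every library, KC-Tie2 in red and Control in blue, with the replicate number as marker shape and the group mean as a bar. C4b, C3 and Cfi lie apart with KC-Tie2 higher, Cd55 lies apart with KC-Tie2 lower, and Cfb lies between 7028 and 8448 in all 6 libraries.

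Per kilobase of the longest transcript, the order of the genes differed between the genotypes. In KC-Tie2 kidneys Cfb had 2667 ± 112 normalized counts per kb, C4b 695 ± 178, Serping1 624 ± 156, Cfi 372 ± 80.5, C2 362 ± 73.6, C3 328 ± 129, Cd55 81.4 ± 13.2, Cd46 28.8 ± 5.6 and C4a 5.29 ± 2.34 (SD, n = 3). The ranges of C4b and Serping1 overlapped, as did those of Cfi, C2 and C3. In Control kidneys Cfb had 2851 ± 227 per kb, Serping1 447 ± 103, C2 303 ± 40.5, Cd55 120 ± 21.7, C3 74.4 ± 22.4, Cd46 33.8 ± 1.85, Cfi 28.1 ± 1.96, C4b 20.9 ± 6.55 and C4a 4.72 ± 1.75. Serping1 and C2 overlapped there, as did Cfi and C4b. C4b thus stood next to Serping1 in KC-Tie2 kidneys and was the lowest of the 9 but C4a in Control kidneys. Within each library, Cfb exceeded C3 per kb by 6.36 to 14.2 times in KC-Tie2 and by 30.9 to 62 times in Control kidneys. Factor I transcript per kb was 0.466 to 0.612 of that of C4b in KC-Tie2 and 0.941 to 1.73 in Control kidneys, and 0.84 to 1.68 of that of C3 in KC-Tie2 against 0.326 to 0.552 in Control kidneys.

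C4b, C4a, Cfb and C2 lie together in the class III part of the major histocompatibility complex. The table held 26 other genes within 250 kb of C4b, and limma called 0 of them, with 0 at an unadjusted p under 0.05 and 0 called in the authors' deposited table. Over all genes these shares were 1.69%, 15.3% and 3.91%. With so few genes called in all, the 0 calls are not read as a result about the region. Their log2 fold changes ran from -0.90 ± 1.82 (Gm20463) to 0.55 ± 0.39 (Ager). Tnxb, which adjoins C4b, stood at 1109, 855 and 1013 normalized counts in KC-Tie2 and 979, 1197 and 881 in Control kidneys, with the groups overlapping. Stk19, which adjoins C4a, stood at 308, 307 and 263 in KC-Tie2 and 283, 259 and 290 in Control kidneys, again overlapping.

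**Figure D2:**
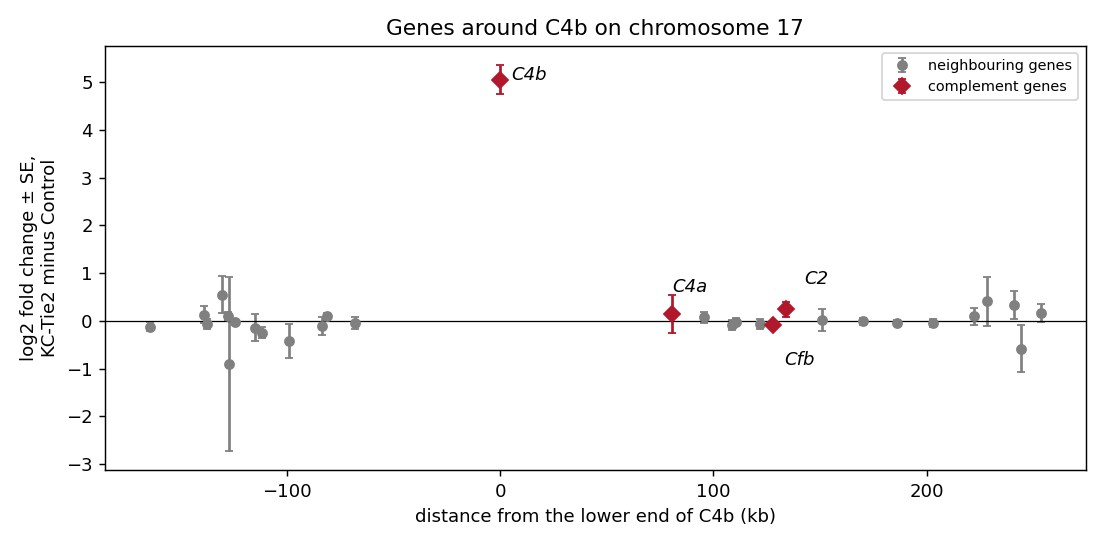
Log2 fold change ± SE (KC-Tie2 minus Control, vertical axis) of the genes within 250 kb of C4b against distance from the lower end of C4b in kb, complement genes as red diamonds and the 26 other genes in grey. C4b is at 5.05, and C4a, Cfb, C2 and the other genes lie between -0.90 and 0.55.

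The rest of the pathway was read from a list of 51 further complement genes, written with earlier results of these data known. The table held 27 of them, of which 4 rose and 0 fell (limma, adjusted over all genes tested), against 0.855% higher and 0.838% lower over all genes. At an unadjusted p under 0.05 there were 9 in either direction, against 15.3% of all genes. The authors' deposited table called 5 higher and 0 lower, against 1.83% and 2.08% of all its genes. The median log2 fold change of the 27 was 0.11. Without KC-Tie2 replicates 1, 2 and 3, the number risen was 2, 2 and 6, and without Control replicates 1, 2 and 3 it was 2, 5 and 2. With limma's eBayes run without trend and robust, or without both libraries numbered 1, it was 0.

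In the classical pathway, 3 of the 5 measured genes of the first component rose. C1qa stood at 254, 259 and 248 normalized counts in KC-Tie2 and 119, 141 and 135 in Control kidneys (log2 fold change 0.94 ± 0.13, limma adjusted p = 0.00742). C1qb stood at 358, 339 and 260 in KC-Tie2 and 180, 190 and 191 in Control kidneys (0.76 ± 0.14, limma adjusted p = 0.021), and C1qc at 226, 277 and 187 in KC-Tie2 and 138, 149 and 115 in Control kidneys (0.77 ± 0.17, limma adjusted p = 0.0449). The 3 chains together form the recognition molecule C1q, and at each of them every KC-Tie2 library was above every Control library. The calls of C1qb and C1qc were lost without KC-Tie2 replicate 1 or 2 or Control replicate 1 or 3, at log2 fold changes of 0.67 to 0.77 for C1qb and 0.63 to 0.79 for C1qc, and that of C1qa in none of the fits that left out 1 library. The protease genes of the first component, C1ra and C1s1, had log2 fold changes of 0.42 ± 0.16 and 0.27 ± 0.14 (limma adjusted p = 0.23 and 0.386).

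C1q in tissue is known to come mainly from macrophages. The 9 macrophage markers, all in the table, summed to 3526 to 3953 normalized counts in KC-Tie2 and 3475 to 3892 in Control kidneys. Most of that sum came from Csf1r and Mertk, with means of 1345 and 1433 in KC-Tie2 and 1306 and 1710 in Control kidneys. In log2 fold change 7 of the 9 were above 0 and 2 below, and limma called 0. At an unadjusted p under 0.05 there were 5, against 15.3% of all genes, and Mertk, which was lower, was among them. The authors' deposited table called 2 higher. Of 8 neutrophil markers 3 were in the table, and all 3 were called higher by limma, against 0.855% of all genes. They summed to 58.1 to 145 in KC-Tie2 and 8.4 to 17.3 in Control kidneys. Their part in the complement values was not tested. Of 10 hepatocyte markers 6 were in the table, with 2 above and 4 below 0 in log2 fold change. Limma called 1 lower and 0 higher, against 0.838% and 0.855% of all genes. The 6 summed to 14579 to 17363 in KC-Tie2 and 19638 to 20668 in Control kidneys. Most of that sum was Apob, the called gene, with means of 13379 in KC-Tie2 and 17456 in Control kidneys. Alb, the albumin gene, was at 69.9, 71.7 and 102 in KC-Tie2 and 136, 122 and 114 in Control kidneys, on the side opposite to C4b, C3 and Cfi. Serpina1a, the gene of an antitrypsin, was on the same side, at 1195, 806 and 987 in KC-Tie2 and 618, 581 and 731 in Control kidneys (limma adjusted p = 0.0818, called higher in the authors' deposited table).

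Lectin pathway genes were mostly outside the table, which held 2 of 8. Masp1, a protease of that pathway, stood at 96.6, 86.7 and 77.1 normalized counts in KC-Tie2 and 44.1, 94.2 and 44.6 in Control kidneys (limma adjusted p = 0.348). Mbl1, a mannose-binding lectin, had a log2 fold change of 0.01 ± 0.29.

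The other alternative pathway genes were Cfd and Cfp, and neither was called. Cfd encodes factor D, or adipsin, the protease that activates factor B and a product of fat cells. Cfd stood at 807, 5 and 47.2 normalized counts in KC-Tie2 and 922, 109 and 27.1 in Control kidneys. It was highest in replicate 1 of each genotype, the same 2 libraries in which the adipocyte markers were highest, and its log2 fold change of -1.20 ± 2.45 carried no call. Cfp, the gene of properdin, which stabilizes the alternative convertase, stood at 57.7, 52.5 and 29.9 in KC-Tie2 and 52.5, 50.4 and 37.9 in Control kidneys.

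Of the terminal pathway, whose proteins build the membrane pore, 3 of 7 genes were in the table and none was called by limma (1 at an unadjusted p under 0.05, 1 called higher in the authors' deposited table). C7 stood at 434, 349 and 219 normalized counts in KC-Tie2 and 190, 114 and 147 in Control kidneys, groups that did not overlap (log2 fold change 1.12 ± 0.28, limma adjusted p = 0.119). C7 was called without KC-Tie2 replicate 3, at a log2 fold change of 1.40 (limma adjusted p = 0.00812), with adjusted p from 0.00812 to 0.351 over the fits that left out 1 library. It was also called with the replicate number added to the fit (limma adjusted p = 0.0119), making 2 of 16 alternative fits. C8a was at 531 to 661 in KC-Tie2 and 513 to 670 in Control kidneys.

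Among further soluble regulators, 3 of 10 were in the table and 1 rose. Cpn1 encodes the catalytic chain of carboxypeptidase N, which trims the anaphylatoxins C3a and C5a. Cpn1 stood at 1946, 2386 and 1714 normalized counts in KC-Tie2 and 1045, 1001 and 867 in Control kidneys (log2 fold change 1.04 ± 0.12, limma adjusted p = 0.00742), and kept its call when any 1 library was left out. Clu, the gene of clusterin, stood at 4242 to 4725 in KC-Tie2 and 3790 to 5012 in Control kidneys. The groups overlapped at Clu.

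Of the membrane regulators, 5 of 8 were in the table and limma called none (1 at an unadjusted p under 0.05, none called in the authors' deposited table). Cr1l encodes Crry, the broadly expressed mouse regulator that has both decay and cofactor activity. Cr1l stood at 874, 865 and 939 normalized counts in KC-Tie2 and 1034, 933 and 857 in Control kidneys, overlapping. Thbd, the gene of thrombomodulin, had a log2 fold change of -0.04 ± 0.08. Of the receptors, 7 of 9 were in the table and limma called none (2 at an unadjusted p under 0.05, none called in the authors' deposited table). The pair with the highest mean counts were Cd93, an endothelial and myeloid receptor, with a log2 fold change of 0.11 ± 0.12, and Cr2, complement receptor 2, with -0.10 ± 0.21.

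**Figure D3:**
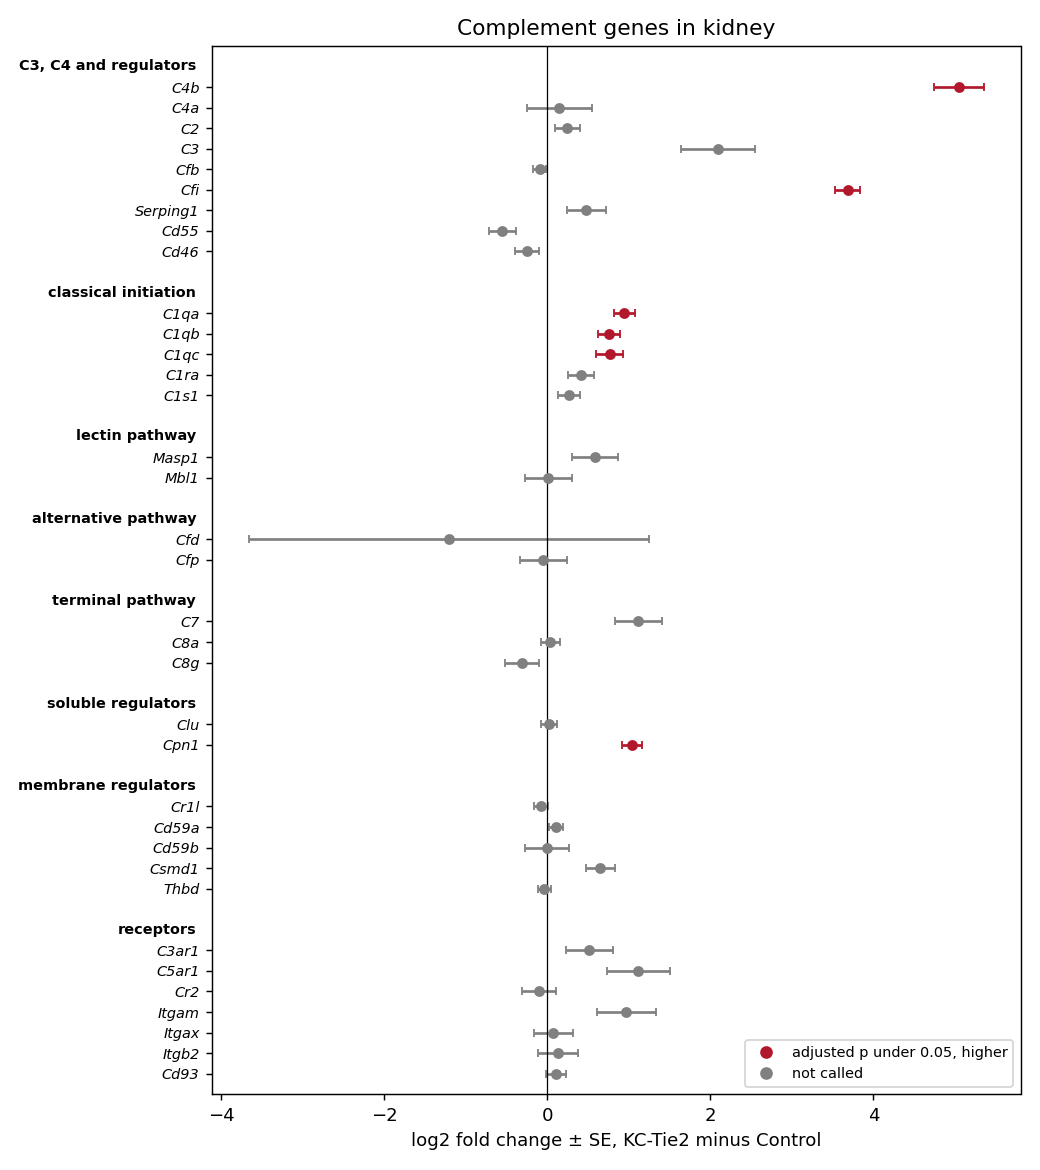
Log2 fold change ± SE (KC-Tie2 minus Control, horizontal axis) of the 9 genes and of the other complement genes reported here, grouped by role, with genes called higher by limma in red. C4b (5.05) and Cfi (3.68) lie farthest to the right, the called C1q genes and Cpn1 lie between 0.76 and 1.04, and Cfd has the widest error, 2.45.

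The genes whose library pattern was most like those of C3, C4b and Cfi were taken from 12269 named genes with a mean of at least 50, by the root mean square difference of log2(value + 1) centred on the Control mean, over 6 libraries. It is a description of likeness, over libraries whose genotype also chose C3, C4b and Cfi. Nearest to C3 was Spp1, which encodes osteopontin, at a distance of 0.26. Spp1 stood at 58913, 81324 and 35940 normalized counts in KC-Tie2 and 12659, 13480 and 10149 in Control kidneys. The histone gene H3c3 (0.35) and Ankrd6 (0.36) followed. As at C3, KC-Tie2 replicate 3 was the lowest KC-Tie2 library in each of the 3. The choice by likeness to C3 over these libraries favours this, so it is no separate observation.

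Nearest to C4b was Tfr2, transferrin receptor 2, at a distance of 0.46, then the fibrinogen gamma chain gene Fgg at 0.81 and Cfi itself at 1.01. Nearest to Cfi were Fgg (0.58), Tfr2 (0.66) and the fibrinogen alpha chain gene Fga (0.95). Tfr2 stood at 127, 179 and 121 normalized counts in KC-Tie2 and 4.2, 9.08 and 4.06 in Control kidneys. Fgg stood at 2433, 1721 and 892 in KC-Tie2 and 63, 136 and 97.4 in Control kidneys. Like C4b, to which they were matched over these libraries, Tfr2 and Fgg had their highest Control value in Control replicate 2. Cfi had its highest in Control replicate 1. The Control order is not firm at Tfr2, whose Control values are few steps of 1 estimated count (0.826 to 1.35). It is not firm at Cfi either, which had 60, 67 and 42 estimated counts in Control replicates 1 to 3. For Serping1 only the 6 called complement genes, members included, were compared, and the nearest pattern was that of C1qb, at 0.33. C1qb had the smallest log2 fold change of the 6, and the distance is not comparable with those found among 12269 genes.

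**Figure D4:**
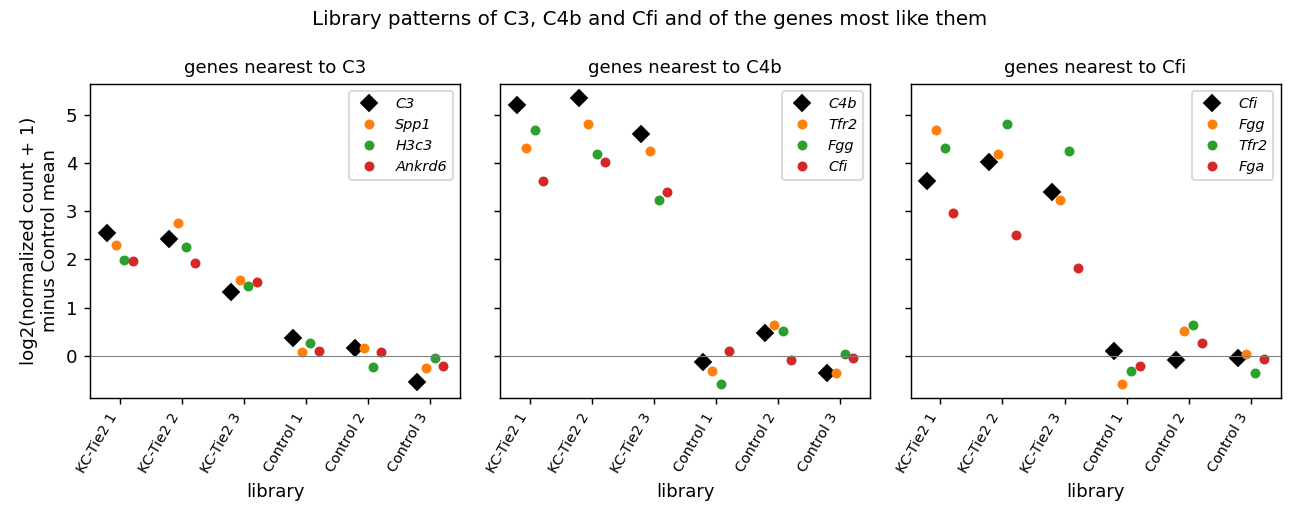
Log2(normalized count + 1) minus the Control mean (vertical axis) in each of the 6 libraries for C3, C4b and Cfi (black diamonds) and the 3 genes nearest to each (coloured circles). C3 and its nearest genes lie lowest in KC-Tie2 replicate 3 among KC-Tie2 libraries, and the C4b and Cfi panels share Tfr2 and Fgg.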

How the data were processed

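RNA was measured in 6 kidney libraries, 3 KC-Tie2 and 3 Control, grouped by the sample titles. Columns were matched by the library names in the labels. The deposited values are a normalized signal per gene. The submitters' processing notes name the tools STAR, DESeq2 and Partek 12.5.0 and the build mm39, with no role for each. In each library 68.3% to 71.0% of the values below 60 were multiples of 1 step (0.826 to 1.35) to within 0.01, so whole reads were not recovered. The step was taken as 1 estimated count, which sets the precision of low genes. The authors' own comparison was deposited as well: per the file headers it gives for each gene a p-value, its step-up FDR and a ratio of KC-Tie2 to a group headed WT. Its calls were counted, not retested.

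Genes with a mean of at least 10 were tested on log2(value + 1) with limma 3.58.1 in R 4.3.3 (lmFit, eBayes with trend and robust, 2 groups, residual df 4). All tests were two-sided and adjusted by Benjamini-Hochberg over the genes tested. The members and lists were chosen with earlier results of these data known. Named genes are the 9 members, Tek, the called genes of the complement list and of the C4b neighbours, the 2 most abundant genes of each of its 7 subgroups, and the 3 genes most like C3, C4b and Cfi. Ager, Gm20463, Tnxb, Stk19, Csf1r, Mertk, Apob, Alb, Serpina1a and the genes of the closing section were named after their values were seen. A listed gene is counted in its list and not reported here. Replicate numbers were not treated as pairs in the main fit, and whether they pair the samples is not known. The alternative fit with the replicate number added, the replicate block, does treat equal numbers as pairs. Lengths and C4 alignments used GENCODE M21 transcripts with Biopython 1.88. Figures used Python 3.11.15 and matplotlib 3.10.9.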

Additional observations from a re-analysis of the deposited data

How the results depend on the processing

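The alternatives were 15 fixed fits and 1 chosen after seeing the data, without both libraries numbered 1. The log2 fold change of Cfi ran from 3.52 to 3.82 and that of C4b from 4.87 to 5.29, with C4b not called without Control replicate 1 or without both libraries numbered 1. Members called higher numbered 1 to 3 and lower 0 to 1 when 1 library was left out, other complement genes called higher 2 to 6, and all genes 25 to 311 higher and 18 to 371 lower. Correlations of deviations were 0.178, -0.096 and 0.017 for libraries sharing the numbers 1 to 3, and ran from -0.283 to 0.26 for unlike numbers. With 3 libraries a genotype, these cannot settle whether equal numbers share a batch. With the replicate block, 3 members were called higher and 1 lower (C3 and Cd55 added), 5 other complement genes were higher (C7 added), and 259 genes were higher and 322 lower. With eBayes without trend and robust, 0 other complement genes were called, and 7 genes were higher and 2 lower in all. Library weights gave 263 higher and 286 lower. Without both libraries numbered 1, which leaves 2 against 2, 1 member and 0 other complement genes were called higher, with 15 genes higher and 5 lower in all. No class III neighbour was called in any of the 16. Signs turned at uncalled genes. With 1 library left out, log2 fold changes ran from -0.18 to 0.38 (C4a), -0.28 to 0.17 (Mbl1), -3.06 to 0.48 (Cfd), -0.22 to 0.24 (Cfp), -0.046 to 0.15 (C8a), -0.093 to 0.11 (Clu), -0.071 to 0.0064 (Thbd), -0.24 to 0.064 (Cr2) and -0.019 to 0.25 (Cd93). Mbl1 was at -0.048 with library weights, and C4a at -0.50 and Cr1l at 0.012 without both libraries numbered 1. The causes were not tested. Of 537 log2 fold changes of named genes under an alternative, 473 kept direction and side of the threshold. At 1 estimated count a step, C4a rests on 14.4 to 40.7 estimated counts a library.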

Other observations

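The genes described here were chosen after their values were seen. C5ar1, the receptor for the anaphylatoxin C5a, stood at 26.6, 30 and 23.6 normalized counts in KC-Tie2 and 9.45, 15.7 and 10.8 in Control kidneys. Its groups did not overlap and it was not called (log2 fold change 1.12 ± 0.39, limma adjusted p = 0.184). Itgam, the alpha chain of complement receptor 3, stood at 91, 66.7 and 32.7 in KC-Tie2 and 22.8, 37.2 and 29.8 in Control kidneys, where KC-Tie2 replicate 3 lay inside the Control range (limma adjusted p = 0.218), and it was called without that library. Csmd1, which encodes a large membrane protein with complement control domains, stood at 129, 132 and 152 in KC-Tie2 and 71.4, 99.9 and 92 in Control kidneys, groups that did not overlap (log2 fold change 0.65 ± 0.18, limma adjusted p = 0.0968).

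KC-Tie2 replicate 3 was the lowest KC-Tie2 library at 5 of the 9 genes, C4b, C2, C3, Cfb and Cfi. KC-Tie2 replicate 2 was lowest at 3 and KC-Tie2 replicate 1 at 1. Whether this is a trait of these genes or of the library as a whole was not tested.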
